A study of Mus musculus with 5 samples.

Results

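The distal 5 Mb of 18 mouse autosomes, the stretches next to the telomere that lies opposite the centromere, were examined for their place in the A and B compartments of hippocampal neuronal nuclei. A 50 kb bin belonged to an end when it finished less than 5 Mb below the highest position listed for its chromosome in any library, and when it had a value in all 5 libraries. This gave 1787 bins, 4.00% of the 44650 bins of the same chromosomes, and the remaining 42863 bins served as the comparison. The series lists 50542 bins with a value in all 5 libraries. Chromosome 7 was left out because its sign is inverted in 1 library, with a lowest Pearson r of -0.976 between libraries. Of the ends, 15 held 100 bins each, while chromosome 2 held 92, chromosome 16 held 97 and chromosome 8 held 98. How far the highest listed position lies from the telomere repeats themselves is not recorded in the tables, so an end here is the end of the mapped sequence.

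Hi-C measures which pieces of DNA touch each other in the nucleus, and the first principal component (PC1) of its contact matrix splits each chromosome into compartment A, which holds most active genes, and compartment B, which is gene-poor and often sits at the nuclear lamina or around nucleoli. Mouse autosomes are telocentric: the centromere sits at the start of the numbered sequence and the only long-arm telomere at its end. Telomeres are capped by short repeats and by their own silent chromatin, and the sequence just inside them ranges from crowded gene clusters to gene deserts, depending on the chromosome. PC1 is a signed score with a mean near 0 and an SD of 1.00 to 1.01 on each chromosome. The level of an end is therefore relative to its own chromosome, which limits any ranking of ends across chromosomes. With the mean held near 0, a fall at an end also goes with rises elsewhere on that chromosome. A positive value is read as A and a negative value as B, following HOMER's usual convention. The tables hold no expression, so the labelled tissue could not be checked against marker genes.

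All libraries came from mice that carry ArcCreERT2, a drug-inducible Cre under the promoter of the activity-regulated gene Arc, together with an R26R reporter in which eYFP follows a floxed STOP. The genotype is given as +/+ for every library, and age and sex are not stated. Each mouse received 4-hydroxytamoxifen before contextual fear conditioning, and nuclei of the hippocampus were stained for NeuN and GFP and sorted. The groups are named Basal (2 libraries), Early (1 library) and Late (2 libraries), and all carry the same treatment label of a foot shock and tissue collection on day 0 without recall. The protocol describes brains taken soon after conditioning and others taken days later, some after a reminder of the fear cue, but it does not tie these to the names Basal, Early and Late. Whether a group holds labelled or unlabelled nuclei is likewise not stated. The protocol speaks of 100000 cells from 2 animals per group in biological replicates, and it leaves unsaid whether each replicate had its own pool of animals. The p-values below measure only the spread between these libraries. The tables hold no read counts, and the depth is unknown.

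Replicates resembled each other at the ends about as closely as elsewhere. Over the 1787 distal bins, r was 0.986 for the Basal pair and 0.962 for the Late pair, against 0.987 and 0.968 in the rest of the same chromosomes. The Early library correlated with the 2 Basal libraries at 0.918 to 0.919 and with the Late libraries at 0.918 and 0.911. These are descriptions across neighbouring bins, which are not independent. Local noise, the SD of a bin around the mean of its neighbours 100 kb on either side (solved from differences between libraries), was 0.131 and 0.134 PC1 units at the ends in Basal, 0.125 in Late replicate 1, 0.246 in Late replicate 2 and 0.274 in Early. In the rest of the chromosomes it was 0.121 and 0.124, 0.113, 0.201 and 0.227 in the same order. Early and Late replicate 2 are thus the noisier libraries, at the ends as in the rest, and the part of this noise in the results was not tested beyond the leave-one-out and noise-weighted fits given with them.

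Distal ends lay mostly in compartment A. In Basal replicates 1 and 2, 1221 and 1229 of the 1787 distal bins (68.3% and 68.8%) had a positive PC1, against 46.1% and 46.0% of bins in the rest of the same chromosomes. The Early library had 68.6% at the ends and 48.4% elsewhere, Late replicate 1 had 66.6% and 47.4%, and Late replicate 2 had 65.8% and 47.8%. Strong A was the most over-represented class: 39.9% and 39.0% of distal bins exceeded a PC1 of 1 in Basal, against 22.0% of other bins in each replicate. Strong B, a PC1 below -1, made up 16.9% and 16.7% of distal bins in Basal and 20.6% of other bins in each. No test was made of these shares. The excess of A is an average over chromosomes that differ widely, as the 18 ends show one by one.

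By their Basal mean, 13 ends lay in A and 5 in B, and all 18 kept the same sign in all 5 libraries. The highest, each on the scale of its own chromosome, were chromosomes 15, 4 and 16. The end of chromosome 15 averaged 1.389 and 1.386 in the Basal libraries, 1.415 in the Early library, and 1.359 and 1.250 in the Late libraries. Chromosome 4 averaged 1.357 and 1.355 (Basal), 1.265 (Early), and 1.151 and 1.160 (Late), and its bins were in A almost throughout, 100 of 100 in every library but Late replicate 2, which had 99. Chromosome 16 averaged 1.206 and 1.198 (Basal), 1.372 (Early), and 1.228 and 1.043 (Late). On chromosomes 15 and 16 the distal window ranked first in Basal PC1 among the 20 and 19 windows of 5 Mb on the chromosome.

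The lowest ends were chromosomes 18, 17 and 13. Chromosome 18 averaged -1.033 and -1.031 (Basal), -0.938 (Early), and -1.197 and -1.121 (Late), the lowest of its 18 windows in Basal. Chromosome 17 averaged -0.982 and -0.968 (Basal), -1.200 (Early), and -1.031 and -1.141 (Late). The other ends in B were chromosome 12, with -0.443 and -0.435 in Basal, and chromosome 3, with -0.149 and -0.109. The remaining ends lay between 0.408 (chromosome 10) and 1.129 (chromosome 11) in Basal mean. The 2 Basal libraries differed little beside this range, with an SD of at most 0.0282 at any end (n = 2). Ordered by Basal mean, the only neighbours whose Basal values overlapped were chromosome 19 (0.550 ± 0.028, SD, n = 2) and chromosome 5 (0.522 ± 0.013, SD, n = 2).

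**Figure D1:**
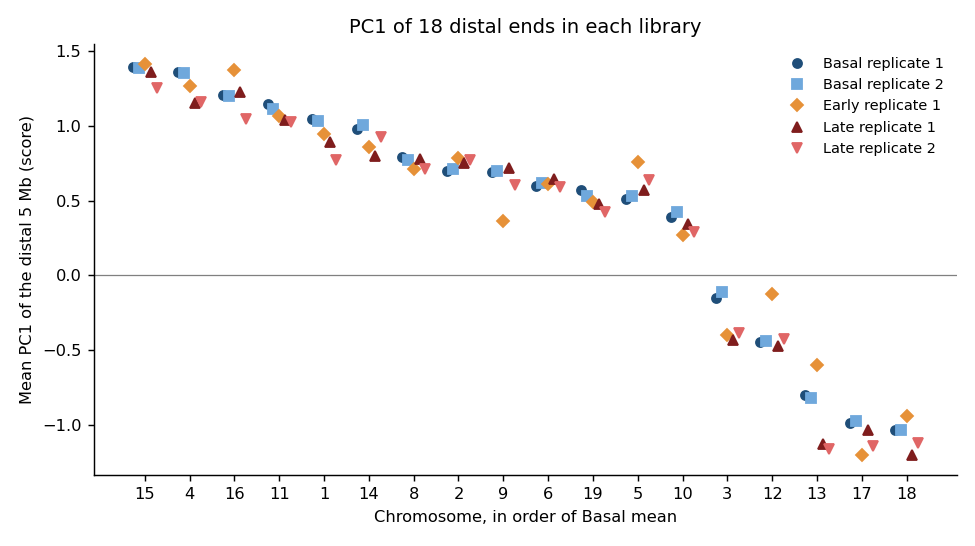
Mean PC1 of the distal 5 Mb (vertical axis, score) for each of the 18 autosomes, in order of the Basal mean, with 1 point per library. The 13 ends at the left lie above 0 and the 5 at the right below 0 in every library, and chromosome 13 shows both Late libraries below both Basal libraries, with Early above them.

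Genes close to these ends can be named only by their order. The RefSeq table at hand is of another build (GRCm38.p6) than the mm9 used for the bins, so it gives which named protein-coding genes come last on a chromosome but not in which bin they lie. At the ends in A these included the complement receptor gene Cr2 and the complement regulator Cd46 on chromosome 1, the nucleolar protein gene Noc2l and the vomeronasal receptor Vmn2r129 on chromosome 4, Metrnl on chromosome 11, the phosphatase inhibitor Ppp1r1a on chromosome 15, and the zinc finger genes Prdm15 and Zbtb21 on chromosome 16. On chromosome 10 the last 3 were the vomeronasal receptors Vmn2r85, Vmn2r86 and Vmn2r87, members of a large family of pheromone receptors that is silent in most tissues. On chromosome 5 the last was Rfc3, a subunit of the clamp loader of DNA replication. The mean of each of these ends was in A, but the last bins can differ from it. In all 5 libraries the last 1550 kb of chromosome 10 lay in B. So did the last 350 kb of chromosome 5, 250 kb of chromosomes 1 and 11, and 150 kb of chromosome 15. A gene named here thus need not share the compartment of its end. At the ends in B they included the neuropeptide gene Adcyap1 on chromosome 17, Tcstv1 and Tcstv3, genes of the early embryo, on chromosome 13, the integrin gene Itgb8 on chromosome 12, Dok6 and Cd226 on chromosome 18, and the visual-cycle enzyme gene Rpe65 and the Wnt secretion factor Wls on chromosome 3.

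PC1 was not uniform within the ends: it fell off toward the tip. Averaged over the 18 autosomes, the last 1 Mb had a mean PC1 of -0.173 and -0.177 (Basal), -0.251 (Early), and -0.206 and -0.235 (Late). The stretch from 2 to 4 Mb had 0.724 and 0.721 (Basal), 0.676 (Early), and 0.610 and 0.560 (Late). It held the highest means within the ends, which widens the contrast. In Basal the step from 1 to 2 Mb had 0.405 and 0.404, and that from 4 to 5 Mb 0.506 and 0.522. No count by chromosome was made against these steps. The last 1 Mb lay below the stretch from 2 to 4 Mb in all 5 libraries on 15 of 18 chromosomes, the exceptions being chromosomes 2, 4 and 18. On 6 of them (chromosomes 5, 8, 9, 10, 12 and 19) the mean passed from A at 2 to 4 Mb to B in the last 1 Mb in every library. Chromosome 10 had the widest such drop in Basal, from 1.663 to -1.264.

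A terminal run of bins in B shared by all 5 libraries was present on 12 of 18 chromosomes. It spanned 3900 kb on chromosome 17, 1550 kb on chromosome 10, 1350 kb on chromosome 3 and 1150 kb on chromosome 12, and between 100 and 850 kb on the other 8. The 6 chromosomes without it were 4, 6, 8, 13, 14 and 16. Over all ends, A was found in 43.3% and 43.9% of bins of the last 1 Mb in Basal, but in 79.2% and 78.9% of those from 2 to 3 Mb. The border of 5 Mb fell in a broad stretch of A: the 5 bins just inside it had a mean Basal PC1 of 0.359 and the 5 just outside it 0.304.

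**Figure D2:**
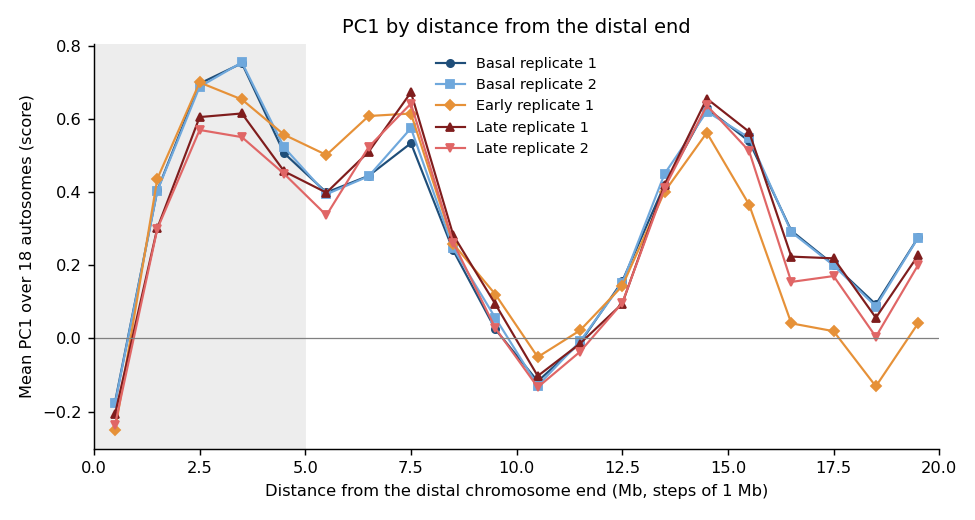
Mean PC1 over 18 autosomes (vertical axis, score) in steps of 1 Mb from the distal end (horizontal axis), with 1 line per library and the 5 Mb of the ends shaded. All 5 lines start below 0 in the last 1 Mb and reach their highest values within the shaded ends between 2 and 4 Mb, where both Late lines (0.550 to 0.615 at 3 to 4 Mb) run below both Basal lines (0.752 and 0.754).

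Late was set against Basal to ask whether the compartment score of the ends differed between these states. Taking each end as 1 unit, PC1 fell in Late at 6 of 18 ends and rose at none (limma on 5 Mb windows, Benjamini-Hochberg adjusted p under 0.05). Over all 451 windows of the 18 autosomes 23.7% were lower and 23.5% higher, so the ends were called less often than the other 433 windows (33.3% against 47.8%), and the calls at the ends were in 1 direction where those elsewhere were about even. This difference was not tested. The largest fall was on chromosome 13, which went from -0.797 and -0.820 in Basal to -1.123 and -1.157 in Late, deeper into B, a difference of -0.332 (SE 0.0270, limma adjusted p = 0.00367). Chromosome 3 went from -0.149 and -0.109 to -0.434 and -0.383, a difference of -0.280 (SE 0.0315, limma adjusted p = 0.00418). On both, the Late and Basal libraries did not overlap.

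Chromosomes 1 and 4 fell while staying in A. Chromosome 1 went from 1.046 and 1.033 in Basal to 0.889 and 0.774 in Late, a difference of -0.208 (SE 0.0441, limma adjusted p = 0.0188), and chromosome 4 fell by 0.200 (SE 0.0237, limma adjusted p = 0.00468). Smaller falls passed on chromosome 18 (-0.127, SE 0.0342) and chromosome 11 (-0.0981, SE 0.0270), with adjusted p of 0.0359 and 0.0377 in limma. With quantile-normalized values these were 0.066 and 0.0538, so both calls ended. Leaving out a Basal library ended both as well, and over all settings their limma adjusted p reached 0.782 and 0.773. With the replicate number as a block the call on chromosome 11 ended too (limma adjusted p = 0.0614). The largest rise, on chromosome 5, was 0.0813 (SE 0.0318, limma adjusted p = 0.0945) and did not pass. In direction alone, 15 of 18 ends were below 0.

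The absence of calls for a rise held with quantile normalization, with the replicate block and without either Basal library, but not with ends of other lengths or without a Late library. Without Late replicate 1, 14 ends were lower and 2 higher, and without Late replicate 2, 10 were lower and 2 higher. With windows of 2 Mb 6 were lower and 3 higher, and the call on chromosome 4 ended (-0.018, limma adjusted p = 0.787). That on chromosome 11 ended too, with a difference of the opposite sign (0.032, limma adjusted p = 0.556). With windows of 10 Mb 5 were lower and 3 higher, and the calls on chromosomes 11 and 18 ended. For none of these other settings is the share over all windows at hand, so the balance of their counts has no background. The falls on chromosomes 1, 3 and 13 kept their calls in every setting run, with a highest limma adjusted p of 0.0492, 0.00805 and 0.0102.

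**Figure D3:**
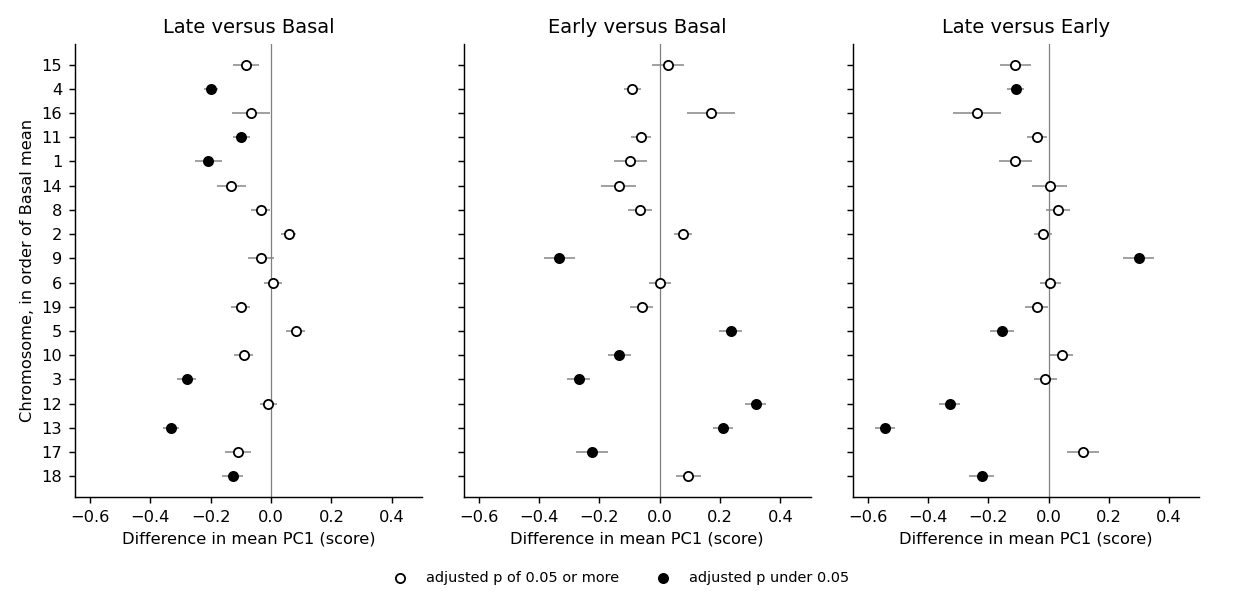
Difference in mean PC1 of the distal 5 Mb (horizontal axis, score) for each chromosome in the 3 comparisons, with the limma SE as bars and filled points where the adjusted p is under 0.05. In Late versus Basal all 6 filled points lie below 0, down to -0.332 on chromosome 13, while Early versus Basal has filled points on both sides.

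Set against the rest of their own chromosomes, the ends stood 0.459 and 0.460 PC1 units higher in the Basal libraries, averaged with equal weight over the 18 autosomes, and 0.442 higher in Early. In Late they stood 0.373 and 0.344 higher. Both Late libraries lay below both Basal libraries and below Early. The difference of Late from Basal was -0.100 (0.359 ± 0.021 against 0.459 ± 0.00092, SD, n = 2 each, exact permutation p = 0.333), where 0.333 is the smallest p that 2 against 2 libraries can give. With any 1 library left out it lay between -0.115 and -0.0858, but with ends of 10 Mb it was only -0.028 (0.401 in Late against 0.429 in Basal). By chromosome, both Late libraries lay below both Basal libraries at 11 of 18 ends and above them at 2, where over all 451 windows measured the same way 39.5% lay below and 39.2% above.

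Bin by bin, 208 of the 1787 distal bins changed in Late, 162 lower and 46 higher (limma, adjusted p under 0.05 over all 47652 bins fitted). Lower bins made up 9.06% of the ends and higher bins 2.57%, while over all bins fitted 7.63% were lower and 8.78% higher. In the rest of the same chromosomes the shares were 6.43% and 7.94%. Taken over all levels, the scarcity of rises is thus the wider departure of the ends from their chromosomes, and the difference of these shares was not tested. The ends also held more bins with a Basal mean above 1 (39.9% against 22.0% of the rest), and of those 0.42% rose in each part. At lower levels rises stayed scarcer at the ends. They were 3.33% against 10.7% between 0 and 1, 6.84% against 13% between -1 and 0, and 2.66% against 4.50% below -1. Lower bins had a median difference of -0.637 (median SE 0.128) and were found on 16 of 18 ends, with 31 on chromosome 13, 25 on chromosome 3 and 23 on chromosome 19. Higher bins had a median difference of 0.547 (median SE 0.122) and lay on 11 ends, with 12 of 46 on chromosome 19.

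These counts depended on the scaling, on the libraries and on the set of sequences fitted. With a 10 Mb running mean subtracted, 110 distal bins were lower and 54 higher. With libraries weighted by local noise 230 were lower and 74 higher. The shares over all bins are not at hand for either setting. Leaving out Basal replicate 1 gave 69 (59 lower, 10 higher), leaving out Basal replicate 2 gave 66 (60 lower, 6 higher), and there were 516 (375 lower, 141 higher) without Late replicate 1. With every sequence kept as deposited, chromosome 7 with its inverted library included, limma called 0 distal bins (375 at an unadjusted p under 0.05). The differences themselves do not change in that setting, as at chr3:157700001-158300000 (-0.978). Only the prior and the adjustment shared over all bins do.

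The calls were spread unevenly along the ends. Between 3 and 4 Mb from the end, 44 of 360 bins (12.2%) were lower in Late and 0 were higher, and between 1 and 2 Mb 46 (12.8%) were lower and 13 (3.61%) higher. In the step just beyond the ends, from 5 to 6 Mb, 38 bins were lower and 32 higher. Between 6 and 8 Mb rises outnumbered falls, with 21 and 9 bins lower and 45 and 55 higher in the successive 1 Mb steps. Steps with more falls than rises also occurred farther in, such as 13 to 14 Mb with 49 lower and 28 higher. Rises were also few in some of the inner steps, at 3.38% from 12 to 13 Mb, 2.5% from 16 to 17 Mb and 1.39% from 19 to 20 Mb. Scarce rises were thus not limited to the ends. The mean Late minus Basal difference was -0.171 at 3 to 4 Mb, -0.0289 at 5 to 6 Mb, 0.103 at 7 to 8 Mb and -0.103 at 16 to 17 Mb, so falls of the mean were not limited to the ends.

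**Figure D4:**
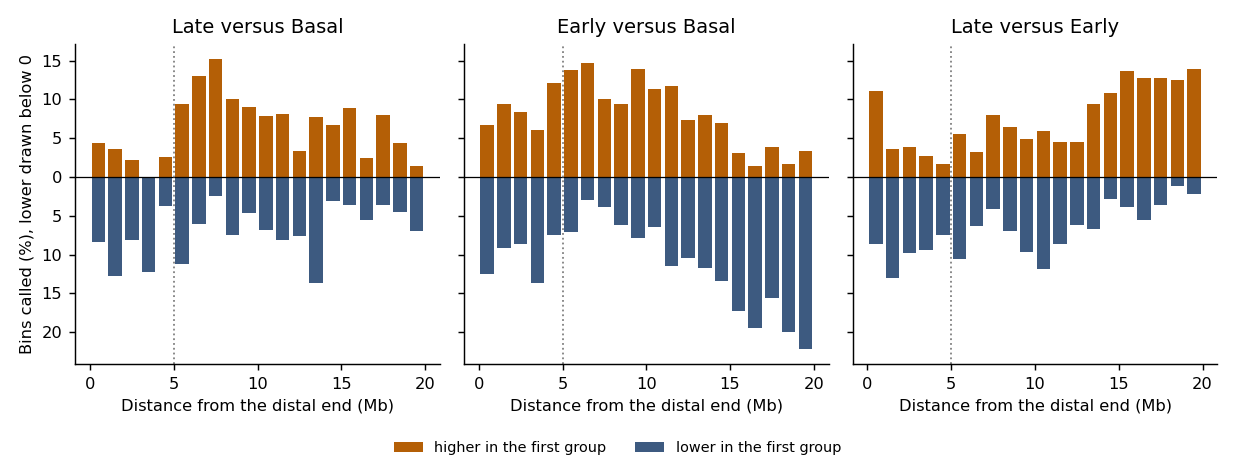
Share of bins called in limma (vertical axis, percent; higher in the first-named group drawn upward, lower drawn downward) in steps of 1 Mb from the distal end, with a dotted line at 5 Mb. In Late versus Basal rises are rare inside 5 Mb, at 0% between 3 and 4 Mb, and reach 15.3% between 7 and 8 Mb. They are also rare in some steps farther in, such as 2.5% at 16 to 17 Mb and 1.39% at 19 to 20 Mb.

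Calls of the same direction formed 53 lower and 24 higher regions at the ends, of which 22 and 5 held at least 3 called bins. Regions were not formed in the rest of the chromosomes, so these counts have no background beside them. In other settings a region is said to lose its call, or its call to end, when most of its called bins no longer passed. The strongest fall was on chromosome 3 at chr3:157700001-158300000, 1300 kb from the end, where PC1 was 0.633 and 0.732 (Basal), 0.0054 (Early), and -0.322 and -0.269 (Late). It passed from A to B with a difference of -0.978 (median SE 0.125), and the highest limma adjusted p among its 12 called bins was 0.0229. On chromosome 18 at chr18:89600001-90000000, PC1 was 0.0949 and 0.187 (Basal), -0.134 (Early), and -0.825 and -0.758 (Late), a difference of -0.933. Over the whole chromosome 18 end, 9 and 12 of 100 bins were in A in the Basal libraries and 0 in both Late libraries.

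Chromosome 14 fell at chr14:124850001-125000000, 200 kb from the end, from 0.646 and 0.743 in Basal to -0.316 and -0.0437 in Late (difference -0.874). Chromosome 19 fell at chr19:58600001-58750000 from 1.059 and 0.822 to 0.203 and 0.0297 (difference -0.824), a call that ended without Basal replicate 1 (-0.705).

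Rises were fewer and smaller. Chromosome 5 rose at chr5:151950001-152150000, from -0.461 and -0.436 in Basal to 0.0249 and 0.441 in Late (difference 0.681), with the Late libraries far apart. Chromosome 14 rose at chr14:122650001-122900000, from 0.364 and 0.524 to 1.142 and 1.079 (difference 0.667), so this end held both a rise and a fall. Chromosome 19 rose at chr19:59450001-59750000, from -0.343 and -0.534 to 0.321 and 0.126 (difference 0.662), and chromosome 3 at chr3:159400001-159550000, within B, from -1.175 and -1.092 to -0.544 and -0.488 (difference 0.617). All of these 4 rises lost its call without 1 Basal library: chromosome 14 without replicate 1 (0.587), chromosomes 5 (0.694) and 19 (0.566) without replicate 2, and chromosome 3 without either (0.575 and 0.659).

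By sign alone, 41 distal bins passed from A in both Basal libraries to B in both Late libraries, and 18 from B to A. These are 2.29% and 1.01% of distal bins, against 2.62% and 3.13% of all bins fitted. In the rest of the same chromosomes 2.23% passed from A to B and 3.09% from B to A. More distal bins started in A, so the shares were also taken over the bins that could switch. Of the 1206 distal bins in A in both Basal libraries 3.40% were lost, against 5.04% elsewhere, and of the 543 in B 3.31% were gained, against 5.92% elsewhere. Both shares were lower at the ends, a difference that was not tested. Chromosomes 3 (9 bins), 14 and 18 (8 each) held most of the losses and chromosomes 5 (6 bins) and 19 (5 bins) most of the gains. The longest loss spanned 350 kb on chromosome 3 at chr3:157900001-158250000, where PC1 was 0.689 and 0.829 (Basal) and -0.456 and -0.354 (Late). The longest gains spanned 150 kb each, both on chromosome 5, at chr5:151700001-151850000 and chr5:151900001-152050000.

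Since the ends started higher than the rest, they were also set beside other bins of the same Basal level. Among bins with a Basal mean between 0 and 1, the 510 distal bins averaged 0.556 and 0.569 (Basal) and 0.472 and 0.439 (Late), a mean difference of -0.107, while the 10310 other bins of that class had 0.012. Among bins above 1 the difference was -0.156 for 713 distal bins and -0.110 for 9416 others. Between -1 and 0 it was -0.0259 for 263 distal bins and 0.0467 for 14332 others, and below -1 it was -0.0132 for 301 and 0.0386 for 8805. The distal mean was below that of the rest in each of the 4 classes. The classes use the same Basal values as the difference, and the comparison was not tested.

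**Figure D5:**
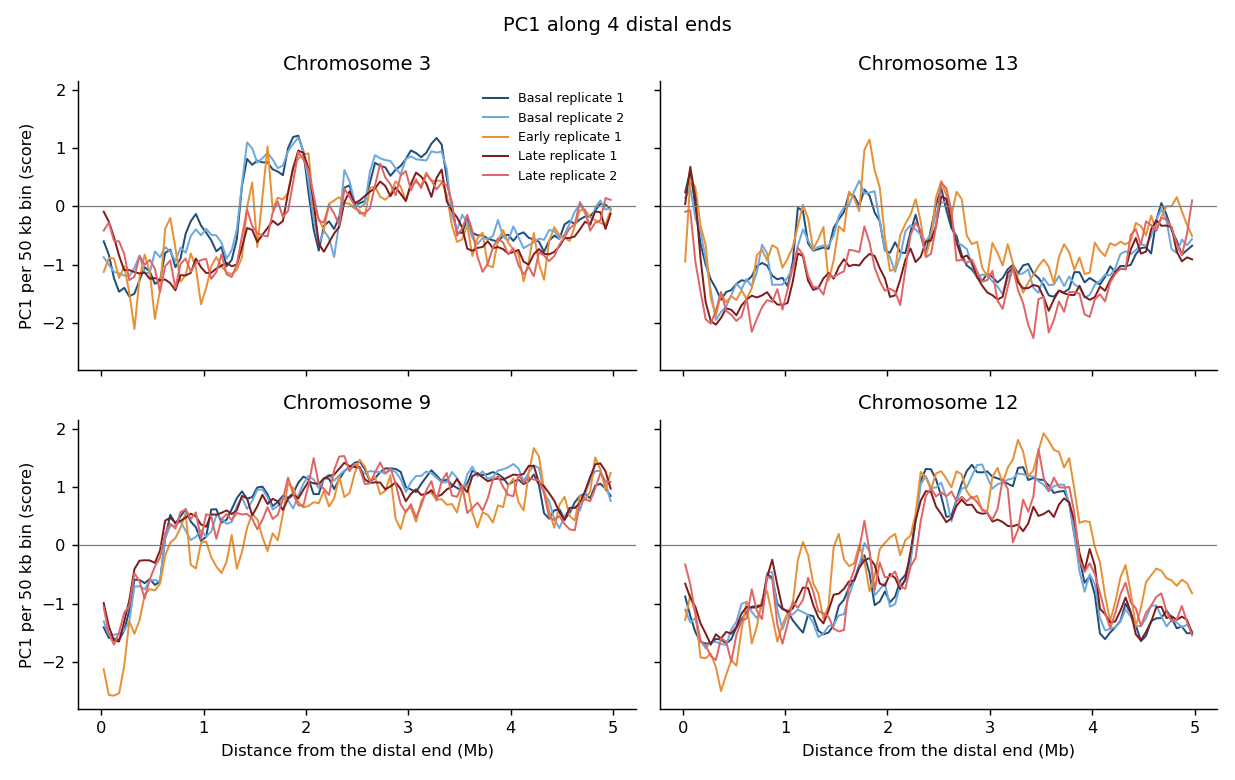
PC1 per 50 kb bin (vertical axis, score) against distance from the distal end (horizontal axis) on chromosomes 3, 13, 9 and 12, with 1 line per library. Both Late lines run below both Basal lines over the 600 kb that start 1300 kb from the end on chromosome 3 and over the 500 kb that start 1500 kb from the end on chromosome 13, the Early line alone runs low at the tip of chromosome 9, and chromosome 12 has the Early line above the others over much of the end.

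Early was compared with Basal on the same question, with the single Early library taken to vary as the replicated groups do. PC1 changed at 7 of 18 ends, 3 higher and 4 lower in Early (limma on 5 Mb windows, adjusted p under 0.05), where over all windows 22.6% were higher and 22.6% lower. Chromosome 9 fell from 0.694 and 0.698 in Basal to 0.362 in Early, a difference of -0.333 (SE 0.0520, limma adjusted p = 0.0094), with Late at 0.716 and 0.607. Chromosome 12 rose from -0.443 and -0.435 to -0.121, a difference of 0.318 (SE 0.0350, limma adjusted p = 0.00572), with Late at -0.473 and -0.424. At both ends the Late libraries lay near the Basal ones and Early stood apart.

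Falls also passed on chromosome 3 (-0.269, SE 0.0386), chromosome 17 (-0.225, SE 0.0524) and chromosome 10 (-0.134, SE 0.0384). Rises passed on chromosome 5 (0.235, SE 0.0390) and chromosome 13 (0.210, SE 0.0330). The call on chromosome 10 ended with quantile-normalized values (limma adjusted p = 0.0949), with a replicate block (0.0743) and without either Basal replicate, and that on chromosome 13 without Basal replicate 2 (limma adjusted p = 0.0734). Windows of 2 Mb ended the calls on chromosomes 10, 12 (limma adjusted p = 0.0858) and 13 (0.225), windows of 10 Mb those on chromosomes 9 (limma adjusted p = 0.0523) and 13 (0.0594), and without either Late library 16 ends were called, 6 higher and 10 lower. Averaged over the 18 ends, the height above the rest of the chromosome was 0.442 in Early against 0.459 in Basal, a difference of -0.0175 (exact permutation p = 0.333, the smallest that 1 against 2 libraries can give). With ends of 10 Mb this difference was 0.0412, the opposite direction, and it ranged from -0.0676 (medians over bins) to -0.0027 (without the last 1 Mb) in the other settings.

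Among distal bins, 152 were higher and 184 lower in Early (8.51% and 10.3%). Over all levels this was close to the 9.97% and 9.98% of all bins fitted and to 8.88% and 8.86% in the rest of the same chromosomes. By Basal level the match was uneven, which was not tested. Below -1, 14.3% of distal bins rose against 5.70% of the rest. Between -1 and 0, 8.745% fell against 4.59%, and above 1, 12.8% fell against 17.9%. Between 0 and 1 the shares were close (10.39% rose and 9.80% fell, against 10.73% and 10.15%). Chromosome 12 held 38 of the higher bins, and chromosomes 9 and 3 held 27 and 25 of the lower ones. The total of 336 was 82 when libraries were weighted by local noise and 47 with every sequence as deposited. Leaving out a Basal library gave 118 (replicate 1) or 122 (replicate 2), and leaving out either Late library gave 724. The strongest rise was on chromosome 16 at chr16:93350001-93550000, at the inner border of the end, from 0.470 and 0.230 in Basal to 1.458 in Early (difference 1.108), with Late at 0.889 and 0.799. Chromosome 12 rose at chr12:119950001-120200000 from -1.353 and -1.269 to -0.366 (difference 0.945), and Late lay between at -0.922 and -0.896.

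Chromosome 8 rose at its very tip, chr8:131350001-131750000, from -1.137 and -1.090 to -0.280 (difference 0.833), with Late at -1.158 and -0.955. Chromosome 6 rose at chr6:147200001-147350000 from 0.0977 and -0.268 to 0.778 (difference 0.863). Weighting by local noise ended the calls on chromosomes 6 (0.859) and 8 (0.833), though 42.9% of the bins on chromosome 8 still passed. Leaving out Basal replicate 2 ended the call on chromosome 6 (0.680).

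Falls in Early were led by chromosome 10 at chr10:126850001-127050000, from 1.856 and 1.908 in Basal to 0.971 (difference -0.911), still in A, with Late at 1.745 and 1.405. The last 500 kb of chromosome 6, chr6:149050001-149550000, fell from -0.313 and -0.343 to -1.215 (difference -0.887), with Late at -0.376 and -0.527. Chromosome 3 fell at chr3:158500001-158700000 from -0.372 and -0.440 to -1.291 (difference -0.886), and here Late was low too, at -1.056 and -1.011. Chromosome 9 fell at chr9:122700001-123050000 from 0.637 and 0.516 to -0.305 (difference -0.881), passing to B, while Late had 0.614 and 0.450. Keeping every sequence as deposited ended 6 of the 8 Early calls named here, those on chromosome 16 and on chromosome 3 being the exceptions. In each of these 6, at most 40% of the bins still passed.

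By sign, 58 distal bins were in B in both Basal libraries and in A in Early, and 62 the reverse. These are 3.25% and 3.47% of distal bins, against 5.70% and 4.09% of all bins fitted. Over the bins that could switch, 10.7% passed to A at the ends and in the rest alike, and 5.14% passed to B at the ends against 7.87% in the rest. Chromosome 19 held 13 of the passages to A, with the longest run at chr19:59550001-59850000 (300 kb, -0.504 and -0.644 in Basal against 0.189 in Early). Chromosome 14 held 13 and chromosome 9 held 10 of the passages to B. The longest of these runs spanned 200 kb each, at chr14:123850001-124050000 (0.550 and 0.388 in Basal, -0.314 in Early) and chr9:122850001-123050000 (0.519 and 0.398 in Basal, -0.330 in Early).

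Late was also set directly against Early. In 5 Mb windows, 5 ends were lower and 1 higher in Late (limma adjusted p under 0.05), where over all windows 21.5% were lower and 18.4% higher. Chromosome 13 was lower by the largest amount, at -0.599 in Early and -1.123 and -1.157 in Late, a difference of -0.541 (SE 0.0330, limma adjusted p = 0.00248). Chromosome 12 (-0.327, SE 0.0350), chromosome 18 (-0.221, SE 0.0419), chromosome 5 (-0.154, SE 0.0390) and chromosome 4 (-0.109, SE 0.0291) were lower as well. Chromosome 9 was the end that was higher, by 0.299 (SE 0.0520, limma adjusted p = 0.0147). The calls on chromosomes 5 (limma adjusted p = 0.103) and 4 (0.28) ended without either Basal replicate, and that on chromosome 4 also with a replicate block (limma adjusted p = 0.0938). Windows of 2 Mb ended the calls on chromosomes 4, 5 and 12 (limma adjusted p = 0.24, 0.116 and 0.97), windows of 10 Mb that on chromosome 4 (0.144), and leaving out Late replicate 1 gave 9 lower and 3 higher, Late replicate 2 gave 8 lower and 4 higher. Against the rest of their chromosomes the ends differed by -0.0828 (0.359 ± 0.021 in Late, SD, n = 2, against 0.442 in Early; exact permutation p = 0.333, the smallest possible). This was -0.0539 with ends of 2 Mb and -0.0544 without chromosome 13.

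Of the distal bins, 173 were lower and 83 higher in Late than in Early (9.68% and 4.64%), where 6.44% and 6.28% of all bins fitted were lower and higher, and 6.59% and 6.56% in the rest of the same chromosomes. By Basal level, which was not tested, 3.23% rose above 1 against 8.88% of the rest. Between 0 and 1 it was 4.90% against 7.565%. Below 0 rises were not scarcer at the ends, at 5.70% against 5.41% between -1 and 0 and 6.645% against 4.78% below -1. With a 10 Mb running mean subtracted the balance turned, to 62 lower and 80 higher. The count of 256 was 37 with libraries weighted by noise, 0 with every sequence as deposited (486 at an unadjusted p under 0.05 in limma), 530 without Late replicate 1 and 500 without Late replicate 2. In the last 1 Mb the balance was the other way, with 40 bins higher and 31 lower. The strongest difference was on chromosome 13 at chr13:118300001-118800000, with PC1 of 0.209 in Early, -0.985 and -0.931 in Late, and -0.0541 and 0.0270 in Basal (difference -1.166). A second stretch of that end, chr13:118900001-119150000, had -0.365 in Early, -1.240 and -1.263 in Late (difference -0.887). It lost its call with the running mean subtracted (-0.445) and with noise weights (-0.881).

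Chromosome 16 at chr16:93800001-93950000 was lower in Late (2.509 in Early, 1.718 and 1.265 in Late, difference -1.017), a call that ended with quantile-normalized values (-0.678) and with noise weights (-0.899). Chromosome 3 at chr3:157950001-158150000 was lower by 0.970, from 0.535 to -0.420 and -0.450, and noise weights ended this call too (-0.962). Higher in Late were chromosome 6 at chr6:149050001-149400000 (-1.521 in Early, -0.448 and -0.557 in Late, difference 1.018) and the tip of chromosome 9, chr9:123700001-124100000 (-2.099 in Early, -1.091 and -1.146 in Late, difference 0.980). Both kept their calls with noise weights, and in both Late lay close to Basal, which had -0.468 and -0.571 on chromosome 6 and -1.265 and -1.252 on chromosome 9. Chromosome 9 at chr9:122700001-123050000 (difference 0.837) and chromosome 14 at chr14:122500001-122650000 (0.819) were higher too, and both lost their calls with noise weights (0.880 and 0.762).

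By sign, 65 distal bins were in A in Early and in B in both Late libraries, and 40 the reverse. These are 3.64% and 2.24% of distal bins, against 4.10% and 3.46% of all bins fitted. Over the bins that could switch, 5.30% passed to B at the ends against 8.80% in the rest, and 7.13% passed to A against 6.84%. Chromosome 13 held 14 and chromosome 12 held 11 of the former, and chromosome 9 held 10 of the latter. The longest run toward B spanned 300 kb at chr6:147750001-148050000, with PC1 of 0.365 in Early and -0.231 and -0.154 in Late, where Basal lay at the border, at -0.0514 and -0.0037. The longest run toward A was the stretch of chromosome 9 at chr9:122850001-123050000 already given, with 0.557 and 0.402 in Late. All 3 comparisons use the same 5 libraries, so their calls at an end are not independent of each other.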

How the data were processed

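The deposited values are a signed score (PC1) per 50 kb bin, 1 table per library, computed in windows of 100 kb by the authors with HOMER on mm9, per the submitters' processing notes. Tool versions, aligner, read filters and sign choice were not given in the sources used here. Titles gave the groups. Autosomes and X with r of at least 0.5 between all libraries were fitted (47652 bins) with limma 3.58.1 in R 4.3.3 on all 5 libraries, without a block, 2-sided, with Benjamini-Hochberg adjustment at 0.05 (2 residual and 6.60 prior degrees of freedom). Means of 451 windows of 5 Mb with at least 50 bins, counted from the distal end, were fitted likewise (prior 2.78). Early, with 1 library, borrows its spread from the replicated groups. Distal minus rest was tested by exact 2-sided permutation. Regions merged called bins of 1 direction across a gap of 1 bin, and the text names, per direction and comparison, the 4 of at least 3 bins with the largest mean difference, the ends called or the 3 highest and lowest in Basal, the longest switched runs, and at most the last 3 named genes. The fits were tested on simulated data. Python 3.11.15, numpy 2.4.6, pandas 2.3.3 and matplotlib 3.10.9 were used for the rest. Members, lists and tests were chosen with earlier results of these data known. Alternatives were other scalings, bins, end lengths, weights, a replicate block and leaving out each library.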

Additional observations from a re-analysis of the deposited data

How the results depend on the processing

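The Late minus Basal difference of the ends from the rest kept its sign in the settings run but not its size, from -0.1414 with medians over bins to -0.028 with ends of 10 Mb. It was -0.0863 without chromosome 13 and -0.1134 without the last 1 Mb, both chosen, like the noise weights, after seeing the data. Late minus Early ranged from -0.1106 without the last 1 Mb to -0.0539 with ends of 2 Mb. Early minus Basal turned to 0.0412 with ends of 10 Mb. Distal bins called numbered 0, 47 and 0 with every sequence as deposited for Late versus Basal, Early versus Basal and Late versus Early. In the same order they numbered 304, 82 and 37 with noise weights, and 164, 249 and 142 with a 10 Mb running mean subtracted. Leaving out 1 library gave 66 to 516, 118 to 724 and 172 to 530 bins, 4 to 16, 5 to 16 and 5 to 12 windows, and 72 to 113, 139 and 136 to 173 sign switches. The highest counts of called bins and windows came without a Late library, where 1 residual degree of freedom, from the Basal pair, is left. Sign switches involve no fit, and leaving out a library relaxes the rule that all libraries of a group share a sign. Shares over all bins or windows are not at hand for these settings. Requiring each library to pass 0 by 0.1 left 24, 59 and 58 switches. The share in A moved to 69.98%, 69.28% and 67.49% in Basal, Early and Late with chromosome medians at 0. With ends of 2 Mb it was 56.39%, 55.69% and 52.85% in the same order. With ends of 10 Mb it was 66.05%, 68.3% and 66.53%, so Late was no longer below Basal. With windows of 2 Mb the differences on chromosome 11 (Late versus Basal, 0.0315) and chromosome 10 (Early versus Basal, 0.0192) had the opposite sign and were not called. The replicate differences of Basal and Late were barely correlated over distal bins (r of 0.0263). This cannot tell whether libraries of the same replicate number were prepared together, which the titles do not say. With the replicate block 255, 349 and 243 distal bins and 6, 6 and 5 windows were called. Depth is unknown, so what it limits cannot be given.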
